A study of Saccharomyces cerevisiae with 70 samples.

Results

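The arrays described here follow budding yeast after the peak of a hydrogen peroxide time course called peroxide II. Members were chosen by the time in their labels: 5 arrays of 100, 120, 140, 160 and 180 min, set against the 4 arrays of 56, 63, 70 and 77 min. These 9 are among 17 arrays of peroxide II, 33 arrays of the second series and 70 arrays in all. All 9 come from strain DBY8724, grown as a culture released together from a G1 arrest and given H2O2. The labels used here state no dose, no time of addition and no untreated course for this series. On each array the RNA of the released culture carried Cy5, and RNA of an asynchronous culture of the same strain carried Cy3. Further groups used below are the 28 to 49 min and 0 to 21 min arrays of peroxide II (4 each). Menadione II, a course of the same strain given menadione at a dose not in the labels used, adds 4 arrays of 100 to 140 min and 4 of 56 to 85 min. Peroxide I, a separate course with 0.24 mM H2O2 on another array design, used cells synchronized with alpha factor, with no strain in the labels. It adds 5 arrays of 105 to 155 min and 6 of 55 to 85 min.

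Yeast cells exposed to peroxide activate the transcription factors Yap1 and Skn7, which raise thioredoxin, glutathione and peroxiredoxin genes together with exporters and reductases. Msn2 and Msn4 raise a wider set of general stress genes, while genes for ribosomes and their assembly are turned down. As the oxidant is removed, both arms are known to relax and the cell cycle resumes.

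Values are log2 ratios of the released culture to the reference culture, with the median gene of each array set to 0. The sources used here give neither log base nor direction for the ratios. Base 2 was assumed, and the direction is likely from the dyes and from the mating pheromone genes, whose median ratio was 1.33 at 0 min. A course is 1 culture, so time points stand in for replicates and p-values measure the spread between time points, within which true change over time also counts. The 2 windows differed in array measures too. The SD of the log2 ratios over genes was 0.702 to 0.855 on the 100 to 180 min arrays, against 0.98 to 1.229 on the 56 to 77 min arrays. Missing spots took 1.2% to 4.8% at 100 to 180 min and 3.2% to 15.2% at 56 to 77 min, and the channel 1 photomultiplier stood at 530 to 550 V and 510 to 520 V. Pairs of arrays correlated over genes at 0.391 to 0.516 within 100 to 180 min and at 0.636 to 0.761 within 56 to 77 min. The part of these measures in the results was not tested, except that the count below is also given for arrays scaled to equal spread.

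At 100 to 180 min 114 genes were lower than at 56 to 77 min, led by exporters, reductases and thiol enzymes, and 58 were higher, of which 24 encode cytosolic ribosomal proteins. These calls are 2.07% and 1.05% of the 5501 genes tested (limma, Benjamini-Hochberg adjusted p under 0.05, 5 arrays against 4). The spread was estimated over all 33 arrays of the second series, and a fit of the 9 arrays alone called 466 genes. The arrays of the 2 windows did not overlap for 107 of the 114 and for 46 of the 58. Over all genes tested, all late values lay below all 56 to 77 min values for 428 genes and above them for 315. Lists used here held 45 of the lower and 37 of the higher genes, so 69 lower and 21 higher genes were in none of them. Scaling all arrays to the same spread gave 143 calls, 59 higher and 84 lower, of which 118 were among the 172. Quantile normalization gave 34 higher and 45 lower, with 70 shared. The 9 arrays scaled to the same spread and fitted alone, a setting chosen after seeing the data, gave 10 higher and 44 lower, with 49 shared. Without centring, which moved the median difference of all genes to 0.20, there were 147 higher and 69 lower. Single arrays carried much of the count of 172. Leaving out 56, 63 or 70 min gave 59, 73 or 84 calls, and leaving out 160 or 180 min gave 75 or 93.

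The 114 lower genes had a median level of 0.29, 0.32, 0.37, 0.09 and 0.16 on the 5 arrays from 100 to 180 min, against 2.07, 1.96, 1.93 and 1.60 from 56 to 77 min. The 58 higher genes stood at -0.45, -0.16, -0.06, -0.11 and -0.15, against -2.07, -1.94, -1.96 and -1.32. These medians describe the selection and carry no test. The 0 to 21 min arrays did not enter the difference between the windows. They did count in its spread and in the filter for missing values. On them the lower genes had medians of 0.02 to 0.20 and the higher genes of -0.50 to -0.07. For 100 of the 114 lower genes and 54 of the 58 higher genes the 5 late values overlapped the range of the 0 to 21 min arrays. Over all genes 4967 of 5298 overlapped in the same way. The widest step of the medians between neighbouring arrays from 56 to 180 min lay between 77 and 100 min. For it the lower genes had medians of 1.60 and 0.29. That step crosses the boundary over which the genes were selected and is the longest in time, so it cannot date the change.

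**Figure D1:**
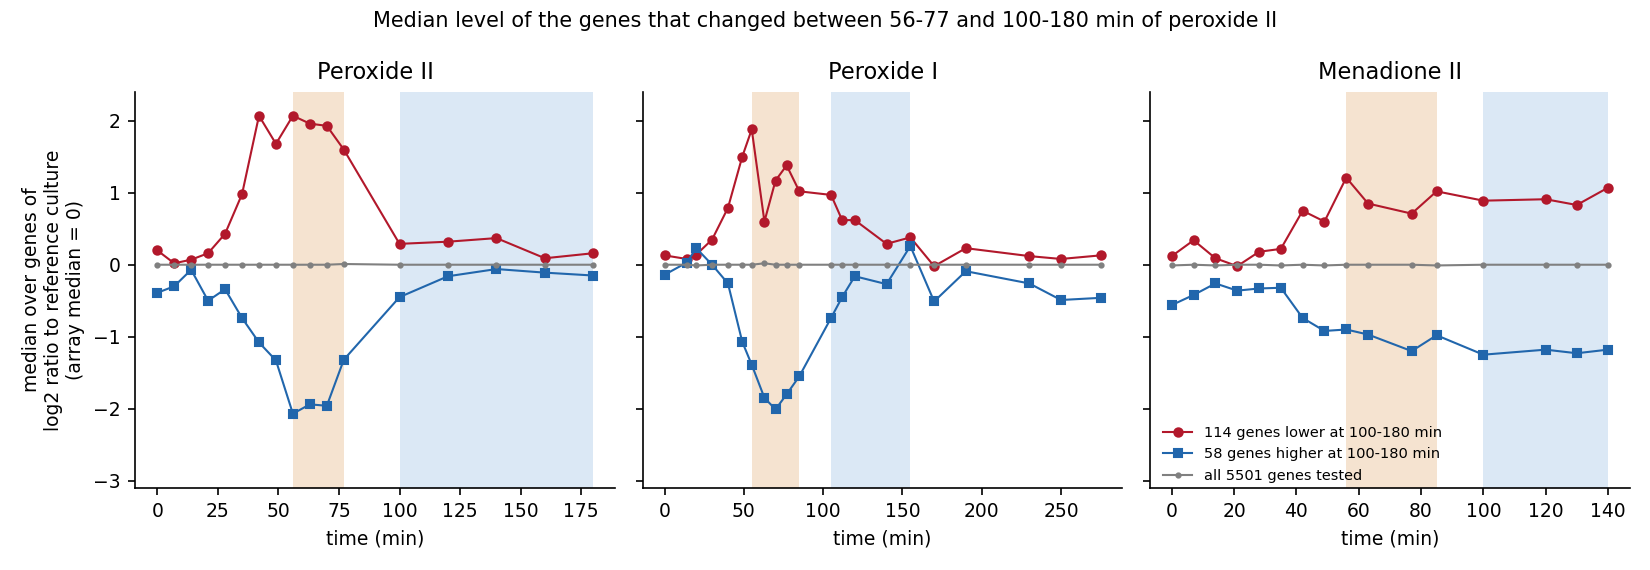
Median log2 ratio to the reference culture over the 114 genes called lower (red circles), the 58 called higher (blue squares) and all genes tested (grey), against time in min, in peroxide II, peroxide I and menadione II. Blue shading marks the later window and orange the earlier one. In peroxide II the red line lies between 0.09 and 0.37 in the later window and between 1.60 and 2.07 in the earlier one, while in menadione II it lies between 0.83 and 1.07 and between 0.71 and 1.21.

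Exporters and reductases of the Yap1 group made the largest returns. OSI1, a dehydrogenase family gene known for its response to oxidants, had log2 ratios of 4.67, 2.91, 1.55, -0.21 and -0.05 at 100 to 180 min, against 6.33, 6.33, 6.19 and 6.01 at 56 to 77 min. It started the late window high and ended it near the reference level, with no overlap between the windows. The difference was -4.44 ± 0.80 (SE), adjusted p = 0.00188. FLR1, a plasma membrane drug exporter, had 1.46, 1.44, 1.22, 0.20 and -0.39, against 5.81, 5.63, 5.04 and 4.35. All 5 late values lay far under the lowest earlier one, and the difference was -4.42 ± 0.61, adjusted p = 6.89e-05.

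ECM4, a glutathione transferase, had 1.82, 1.44, 1.52, 0.81 and -0.02 late, against 4.43, 4.13, 4.96 and 3.96, a fall of 3.25 ± 0.85 on the log2 scale with adjusted p = 0.0306. AAD14, of the aryl-alcohol dehydrogenase family, had 3.36, 2.47, 1.99, 0.27 and -0.03, against 5.07, 4.59, 4.85 and 4.37. Like OSI1 it was still clearly raised at 100 min and at the reference level by 180 min. FRM2, a nitroreductase-like gene outside the list, had 1.19, 0.78, 0.63, 0.29 and 0.65, against 3.06, 4.21, 5.24 and 4.08. Its late values were low from the first array on, and it fell by 3.44 ± 0.47, adjusted p = 6.89e-05. Of 25 genes in the list of exporters, oxidoreductases and glutathione transferases, 8 fell and none rose, with a median difference of -1.37 against 0.01 over all genes. After quantile normalization between arrays the list median was -0.70. The exporter ATR1 and the glutathione transferase GTT2 differed by 0.01 ± 0.34 and 0.12 ± 0.57.

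Among the genes of peroxide and thiol defence, the 2 reductases that recycle the thiol pools fell. GLR1, glutathione reductase, had -1.15, -0.70, -0.28, -0.83 and -0.79 at 100 to 180 min, against 2.56, 2.23, 2.30 and 0.99 at 56 to 77 min. The late values lay below the reference culture and did not overlap the earlier ones, and the difference was -2.77 ± 0.37, adjusted p = 6.89e-05. TRR1, thioredoxin reductase, had 2.05, 1.64, 1.49, 0.89 and -0.84, against 3.48, 3.56, 4.16 and 3.43. It declined over the whole late window and differed by -2.61 ± 0.58, adjusted p = 0.011. CTA1, the peroxisomal catalase, had 0.19, -0.35, -0.56, -0.68 and -0.49, against 2.22, 1.93, 1.89 and 1.45, and fell by 2.25 ± 0.54, adjusted p = 0.0175. Its cytosolic counterpart CTT1 had 0.39, 0.24, 0.18, 0.32 and 1.25, against 2.73, 2.26, 1.79 and 1.13, and did not pass (adjusted p = 0.145). The windows of CTT1 overlapped through 1 array on each side. Of the 31 genes in the list 4 fell and none rose, and the median difference was -1.03, or -0.32 after quantile normalization.

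ZWF1, the first enzyme of the pentose phosphate pathway and a source of NADPH, had 1.30, 1.39, 1.75, 0.64 and 0.45, against 3.51, 3.32, 3.58 and 3.07. The windows stood apart, and it fell by 2.26 ± 0.49, adjusted p = 0.00964. It was the call among 11 genes of the pathway, whose median difference was 0.11. AIF1, a homologue of the apoptosis-inducing factor, had 0.81, 0.17, 0.32, -0.07 and 0.34, against 3.66, 3.68, 3.13 and 1.95. NMA2, an NAD synthesis enzyme, had -0.65, -0.51, 0.30, -0.57 and -0.38, against 2.57, 2.46, 2.46 and 1.40. Neither was above 0.81 on a late array, and adjusted p was 0.000955 for AIF1 and 0.0012 for NMA2. AIM46 (-2.72 ± 0.50) and YDL218W (-2.90 ± 0.45) fell as well, with adjusted p of 0.00234 and 0.000501.

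Of 34 general stress genes 5 fell and none rose, with a median difference of -1.01, or -0.45 after quantile normalization. TFS1, an inhibitor of carboxypeptidase Y, had 1.59, 1.33, 1.65, 2.06 and 0.91, against 4.76, 4.97, 3.92 and 3.24. It fell by 2.72 ± 0.77 (adjusted p = 0.0462), a call lost in 12 of 22 other settings, and was above the reference culture on every late array. GRE3, an aldose reductase, had -0.19, 0.32, 0.43, -0.27 and -0.08, against 1.61, 3.08, 3.26 and 1.17, a fall of 2.24 ± 0.39 with adjusted p = 0.00135. HSP12, a small membrane-associated stress protein, had 2.36, 3.10, 2.81, 1.07 and 0.20, against 2.68, 3.09, 4.02 and 1.60, and its windows overlapped.

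Of 23 chaperone genes 6 fell and none rose, with a median of -0.71. SSA1, an Hsp70, had 0.05, -0.19, 0.36, -0.20 and 0.31, against 2.00, 2.58, 1.79 and 1.64, and fell by 1.94 ± 0.43, adjusted p = 0.011. HSP82, an Hsp90, had -0.98, -0.91, -1.24, 0.04 and -0.30, against 1.64, 1.58, 1.00 and 0.49, a fall of 1.86 ± 0.41 with adjusted p = 0.00964. Both chaperones had separate windows, and HSP82 ended under the reference culture on 4 of 5 late arrays. Of 34 proteasome genes 6 fell, among them RPN4, the transcription factor of the proteasome genes (-1.25 ± 0.33, adjusted p = 0.0312). The differences were negative for 33 of the 34 genes, with a median of -0.87. RPT3, a base subunit, had -0.48, -0.73, 0.43, 0.28 and 0.10, against 1.46, 1.40, 1.67 and 1.44.

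Iron uptake genes fell with them, 7 of 29, and none rose (median -0.89). ENB1, a siderophore transporter, had -1.12, -1.62, -0.81, -0.65 and -1.18, against 1.58, 1.20, 1.29 and 1.06. It was above the reference culture on every 56 to 77 min array and below it on every late one, and fell by 2.36 ± 0.49, adjusted p = 0.00682. FIT2, a cell wall mannoprotein that holds siderophores, had 3.39, 2.45, 1.66, 1.13 and 0.81, against 3.73, 5.24, 5.37 and 3.33. It declined at every step of the late window and overlapped the earlier one through the 100 min array. CYC1, cytochrome c, had 1.75, 1.81, 1.56, 0.90 and -0.18, against 3.31, 3.40, 3.88 and 3.86 (adjusted p = 0.028), as 1 of 47 respiratory genes to change. LYS20, the first enzyme of lysine synthesis, had 2.59, 2.61, 2.21, 2.16 and 1.27, against 4.12, 4.29, 4.35 and 4.27. It fell by 2.09 ± 0.46 (adjusted p = 0.0101) and was the member of its list that changed. The 16 genes of trehalose and glycogen metabolism gave no call in either direction (median -0.48).

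**Figure D2:**
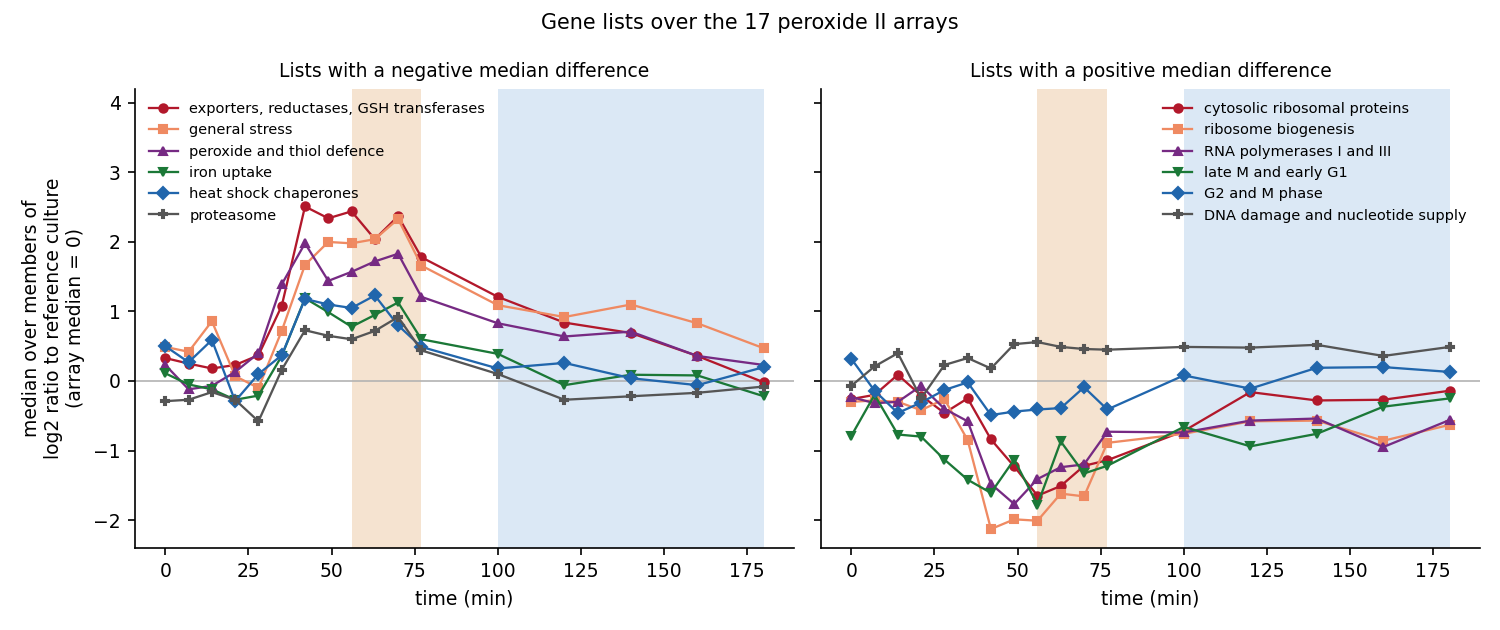
Median log2 ratio over the members of 12 gene lists (lines with different markers) on each of the 17 peroxide II arrays, against time in min, with 100 to 180 min shaded blue and 56 to 77 min orange. The list of exporters, oxidoreductases and glutathione transferases lies between -0.02 and 1.21 late and between 1.78 and 2.44 before, and the cytosolic ribosomal proteins between -0.72 and -0.14 and between -1.65 and -1.14.

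Genes for making ribosomes moved the other way. Of 136 cytosolic ribosomal protein genes 24 rose and none fell, and the difference was positive for 133 (median 1.07). The list median was -0.72, -0.16, -0.28, -0.27 and -0.14 on the late arrays, against -1.65, -1.51, -1.22 and -1.14. At 0 to 21 min it lay between -0.26 and 0.09. RPL42A had -0.27, -0.16, -0.51, -1.01 and 0.90, against -2.53, -2.52, -2.71 and -2.12, a rise of 2.26 ± 0.45 with adjusted p = 0.00574. RPL9A had -0.85, -1.16, -0.59, -0.94 and -1.01, against -3.16, -3.01, -2.52 and -3.22 (2.07 ± 0.36, adjusted p = 0.00135). The windows of both genes were clearly apart. Many of these genes have a near-identical paralogue, and spotted probes may read both copies, so the values of single paralogues are uncertain.

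Of 73 ribosome biogenesis genes 6 rose and 1 fell (median 0.92). MRT4, an assembly factor of the large subunit, had -0.90, -0.60, -1.69, -1.47 and -1.19, against -7.47, -2.27, -5.19 and -1.45. The earlier values were widely spread and 1 of them lay inside the late range, and the rise was 2.93 ± 0.65, adjusted p = 0.011. NSR1, a nucleolar protein, had -0.45, -0.39, -1.14, -0.83 and -1.22, against -4.64, -4.60, -2.67 and -1.98. DBP2, an RNA helicase, had -2.67, -2.79, -2.19, -1.76 and -1.45, against -4.58, -5.50, -4.58 and -3.68. Both rose without overlap (adjusted p of 0.0319 for NSR1 and 0.0132 for DBP2), and DBP2 stayed under the reference culture on all 5 late arrays. The gene of this list that fell was ERB1, named after its value was seen (-1.33). TOD6, a repressor of ribosome biogenesis genes, rose as well, with -0.09, -0.62, -1.23, -1.78 and -0.55, against -4.23, -3.01, -2.42 and -2.95 (2.30 ± 0.52, adjusted p = 0.0125).

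Translation factors gave 3 rises among 38 genes (median 0.39), led by the elongation factor YEF3 at 1.81 ± 0.49, adjusted p = 0.0319. None of the 22 subunits of RNA polymerases I and III was called, with a median of 0.64, or 0.30 after quantile normalization. RPA34 had the largest difference, 2.26 ± 0.72, and did not pass (adjusted p = 0.0756). The 68 mitochondrial ribosomal protein genes were not called either, and their median was -0.30. Median levels of ribosome biogenesis were -0.86 to -0.57 late, below the -0.42 to -0.28 of the 0 to 21 min arrays. Those of RNA polymerases I and III were -0.95 to -0.54, below -0.32 to -0.07. Translation factors overlapped, with -0.55 to -0.31 against -0.64 to 0.04. These level ranges carry no test, and no gene of these lists was called late against 0 to 21 min.

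**Figure D3:**
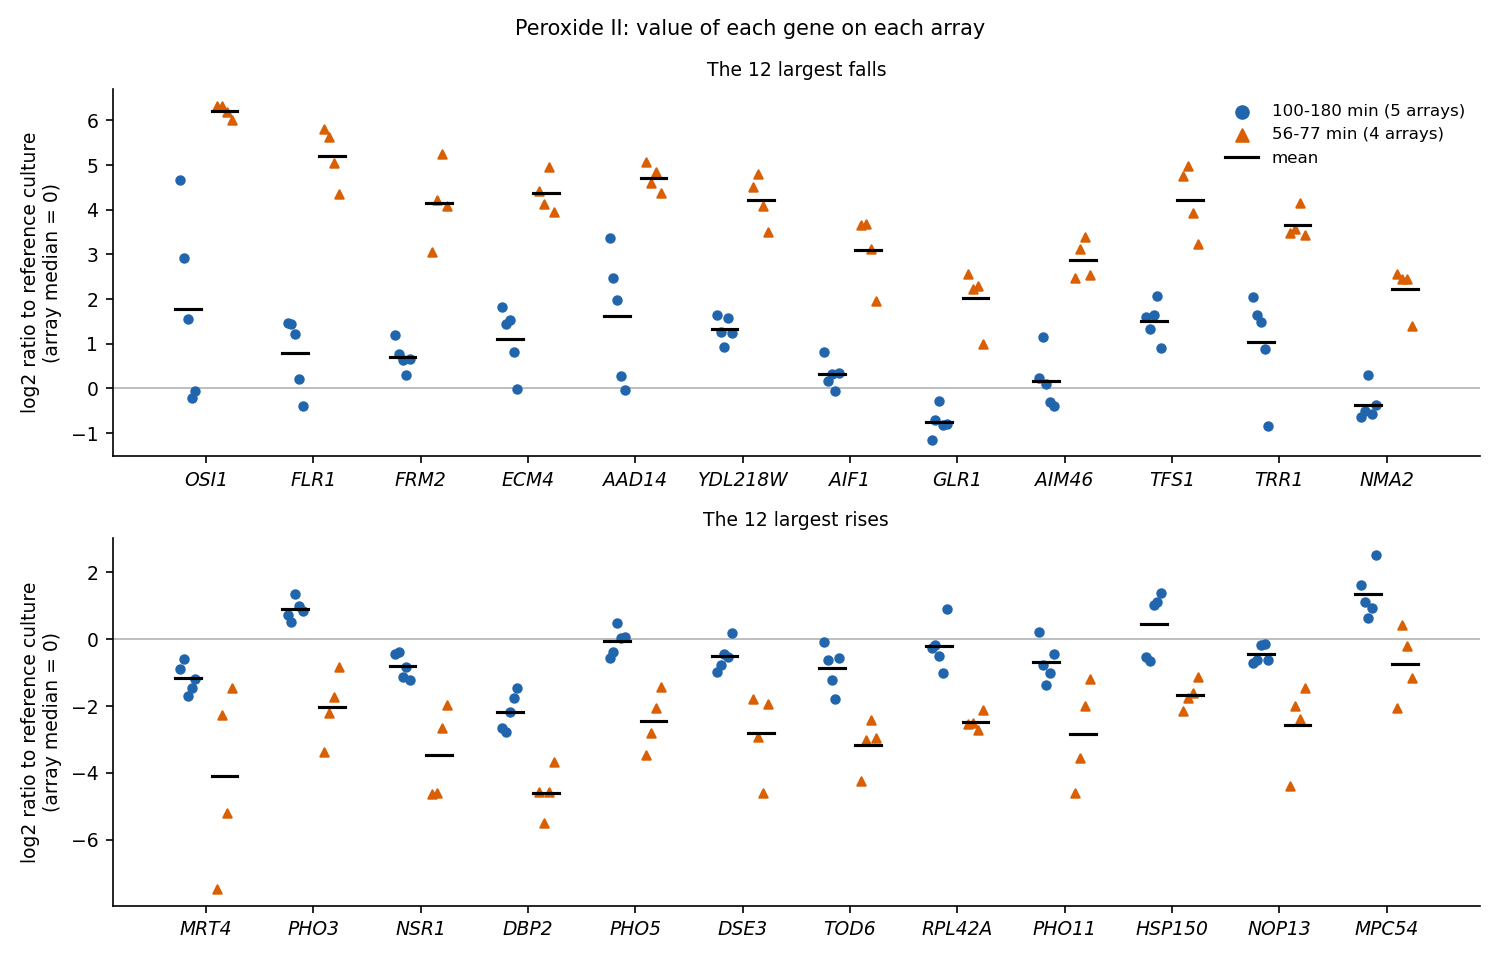
Log2 ratio to the reference culture of the 12 genes with the largest falls (top) and the 12 with the largest rises (bottom) among called genes with a value on all 9 arrays; blue circles are the 5 arrays of 100 to 180 min, orange triangles the 4 of 56 to 77 min, and black lines the means. In the top panel no gene overlaps between the windows, and in the bottom panel MRT4 and PHO11 do.

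PHO3, an acid phosphatase, had 0.73, 0.51, 1.36, 1.00 and 0.85, against -3.36, -2.20, -1.74 and -0.82. It was above the reference culture on every late array and below it on every earlier one, and rose by 2.92 ± 0.54, adjusted p = 0.00234. Its chromosomal neighbour PHO5 had -0.55, -0.37, 0.48, 0.05 and 0.08, against -3.47, -2.81, -2.06 and -1.43 (2.38 ± 0.41, adjusted p = 0.00135). PHO11 rose by 2.15 ± 0.56 (adjusted p = 0.0281). These genes are similar in sequence, so their probes may share signal. DSE3, a gene expressed in daughter cells after division, had -0.98, -0.78, -0.45, -0.54 and 0.20, against -1.80, -2.92, -4.61 and -1.93 (2.31 ± 0.54, adjusted p = 0.0154). HSP150, a cell wall protein, had -0.54, -0.66, 1.02, 1.12 and 1.39, against -2.14, -1.77, -1.61 and -1.13. Its last 3 values were above the reference culture. These 2 were the rises among 28 late M and early G1 genes (median 0.91, or 0.46 after quantile normalization).

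DPC25 had the largest rise of all, 3.49 ± 0.53 (adjusted p = 0.000601), on 4 late and 3 earlier arrays. Its values were 1.47, 1.35, -0.86 and 1.07 at 100, 120, 160 and 180 min, against -2.63, -2.17 and -3.40 at 56, 63 and 77 min. The cyclins and other cycle genes fixed by name gave no call. CLB2 differed by 0.39 ± 0.39, CLN2 by 0.92 ± 0.57, CLB5 by 1.19 ± 0.58 and SIC1 by 0.22 ± 0.63. CTS1, the chitinase of cell separation, had -2.81, -3.18, -1.76, -1.58 and -1.66, against -6.30, -3.00, -3.84 and -6.65 (2.75 ± 1.00, adjusted p = 0.13). Of 31 G2 and M genes none was called (median 0.36), nor was any of 10 histone genes (0.08). None of 6 a-specific, 4 alpha-specific and 11 sporulation genes was called. PCL1, a G1 cyclin, fell by 1.19 as the only call among 46 G1 and S genes, and that call was lost in 13 of 22 other settings.

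Within the late window no gene passed the test. Comparing 140, 160 and 180 min with 100 and 120 min, limma called none of 5444 genes (0% of those tested), with 144 at an unadjusted p under 0.05. After quantile normalization 2 genes were called. Without the 100 min array the count was 2 as well. Values of 6 of the 114 lower genes (5.26%) went down at each of the 4 steps from 100 to 180 min. They were AAD14, AAD3, FIT2, FLR1, GRE2 and TRR1. Over all 5413 genes with 5 values, 1.18% went down at every step. The 114 were selected with these same late values, so the shares carry no test. At 180 min 66 of the 114 were lower than at 100 min and 48 were higher. Of the 5413 genes with 5 values, 2647 were lower and 2765 higher. GRE2, a reductase of the Yap1 group, went through 1.72, 1.62, 1.12, 0.80 and 0.10. The peroxiredoxin TSA2 had 5.66, 4.61, 3.60, 1.72 and 1.22 late, against 4.96, 6.47, 6.44 and 4.62, and missed the threshold between the windows (-2.26 ± 0.77, adjusted p = 0.0992).

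A small number of genes stayed apart from the 0 to 21 min arrays. The comparisons of 56 to 77 min and of 100 to 180 min with 0 to 21 min share the early arrays, so their values are given side by side. At 56 to 77 min 486 genes were higher (9.17% of 5298) and 281 lower (5.30%). At 100 to 180 min 24 were higher (0.451% of 5321) and 7 lower (0.132%). Without centring the late counts were 72 higher and 6 lower, and after quantile normalization 70 and 41. Genes past the threshold in the same direction both times numbered 19 up and 5 down. Single arrays moved the late count of 31 strongly: leaving out 100, 120 or 140 min gave 14, 9 or 13 calls, and leaving out 21 min gave 20. Of the 4 early arrays, those of 14 and 21 min were scanned on another day, and with the scan day as a covariate there were 6 late calls. The same covariate gave 138 higher and 56 lower genes at 56 to 77 min.

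Peroxiredoxins and thioredoxin are in the group that stayed up. PRX1, the mitochondrial peroxiredoxin, had 3.06, 3.36, 2.84, 2.61 and 1.90 at 100 to 180 min, against -0.37 to 0.39 at 0 to 21 min. At 56 to 77 min it had 4.74, 4.44, 4.91 and 4.07. Late levels lay between those of the start and those of 56 to 77 min, with 2.76 ± 0.60 over the start (adjusted p = 0.0236) and -1.78 ± 0.60 from 56 to 77 min (adjusted p = 0.0932). TSA1, the main cytosolic peroxiredoxin, had 2.07, 2.68, 2.66, 1.66 and 1.33 late, against -0.61 to 0.34 at the start (2.19 ± 0.48, adjusted p = 0.0238). TRX2, a cytosolic thioredoxin, had 1.78, 1.77, 1.08, 0.78 and 0.89, against -1.29 to -0.35 (2.18 ± 0.51, adjusted p = 0.0362). None of the late values of these genes overlapped the start. With the scan day as a covariate their differences were 2.17, 1.54 and 1.67, with adjusted p of 0.337, 0.404 and 0.438. TRX2 differed by -0.42 ± 0.51 between the windows (95% interval -1.46 to 0.62), while TRR1, which reduces it, is among the falls above.

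CCP1, the mitochondrial cytochrome c peroxidase, had too few early values for the test. It stood at 2.50, 2.99, 2.66, 1.68 and 0.10 late, against 2.14, 2.15, 3.49 and 2.54 at 56 to 77 min and -4.12 and -1.03 on the 2 early arrays with a value. AHP1, a further peroxiredoxin, had 2.25, 2.99, 2.00, 1.36 and 0.66, against 2.10, 2.59, 3.89 and 2.47, with overlap and no call (-0.91 ± 0.46, adjusted p = 0.295).

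The ribonucleotide reductase subunits RNR2 and RNR4 were also up at the end. RNR2, a small subunit, had 2.13, 1.79, 3.21, 2.35 and 1.76 late, against -2.30 to 0.59 at 0 to 21 min (3.01 ± 0.58, adjusted p = 0.00983). It differed by 0.04 ± 0.58 from 56 to 77 min, with a 95% interval of -1.14 to 1.22. RNR4, its partner, had 2.48, 1.33, 2.45, 1.91 and 2.13 late, against 0.56, 0.59, 1.20 and 0.64 at 56 to 77 min. All its late values were above all earlier ones, yet the difference of 1.31 ± 0.51 did not pass (adjusted p = 0.155). Against the start it was 2.66 ± 0.51 higher (adjusted p = 0.00983). With the scan day as a covariate adjusted p was 0.213 for both. RNR1, the large subunit, differed by -0.64 ± 0.60 between the windows, and RNR3 by 0.85 (adjusted p = 0.46). Neither RNR1 nor RNR3 was among the genes called against the start. The list of DNA damage and nucleotide supply genes had a median level of 0.36 to 0.52 late, against 0.45 to 0.56 at 56 to 77 min. RAD54, a recombination factor, was the call in it (1.59 ± 0.37, adjusted p = 0.0138).

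Of 29 mating pheromone genes 3 were lower and none higher late, and of 32 G2 and M genes 2 were higher and none lower. CLB2, the main mitotic cyclin, had -1.44, -1.17, -0.43, -0.42 and -0.79 late, against -4.36 to -2.39 at 0 to 21 min, a difference of 2.53 ± 0.39 with adjusted p = 0.000946. MFA1, an a-factor gene, had -1.43, -1.45, -2.38, -1.81 and -1.18, against 1.11 to 2.46 at the start. It was lower by 3.68 ± 0.50 (adjusted p = 0.000112), and the agglutinin subunit AGA2 differed by -2.41 ± 0.55 (adjusted p = 0.0329). Their late values stood apart from the start. These 3 kept adjusted p of 0.00471, 0.00405 and 0.00567 with the scan day as a covariate. The other 3 to pass that fit were ERC1, ERG4 and IRC25, of which ERC1 and ERG4 are named after their values were seen. MRH1, a membrane protein, had 0.41, 0.31, 1.34, 0.03 and 1.13, against -4.38 to -1.05 (3.33 ± 0.60, adjusted p = 0.00538), and its adjusted p was 0.151 in that fit. No untreated course was used here, so release from the arrest and the oxidant cannot be told apart in comparisons with the start.

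**Figure D4:**
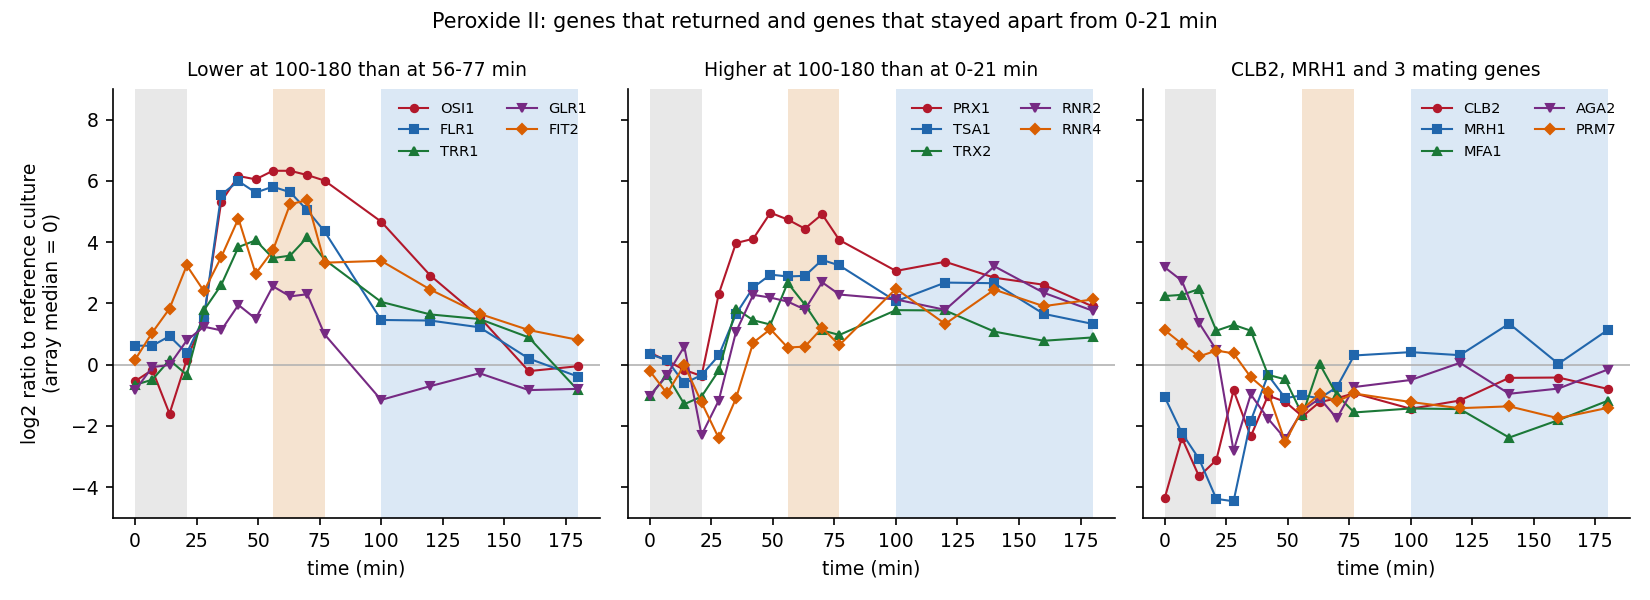
Log2 ratio to the reference culture of 15 genes on the peroxide II arrays, against time in min, with 0 to 21 min shaded grey, 56 to 77 min orange and 100 to 180 min blue; each line is 1 gene. OSI1 runs between 6.01 and 6.33 in the orange window and ends at -0.05, PRX1 ends at 1.90, and MFA1 lies between -2.38 and -1.18 at the end.

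The earlier 28 to 49 min arrays did not enter the difference of 100 to 180 from 56 to 77 min. They did count in its spread and in the filter for missing values. Against 0 to 21 min, 157 genes were higher at 28 to 49 min (3.02% of 5196) and 73 lower (1.40%), or 112 and 88 without centring. A fit of those 8 arrays alone called 15 genes. With scan day, which also sets the 28 min array apart, 122 were called. Of the 114 genes that fell later, 110 had a positive difference there and 47 were called higher. Of 56 tested genes that rose later, 50 had a negative difference and 4 were called lower. Over all genes tested in both comparisons, 2612 of 5174 had a positive difference and 2562 a negative one. Medians of the lower genes were 0.43, 0.98, 2.07 and 1.68 at 28, 35, 42 and 49 min. Leaving out 28 min raised the count of 230 to 656, leaving out 42 or 49 min gave 67 or 95, and leaving out 14 or 21 min gave 120 or 153.

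Peroxide I gave a second look at the same interval in another culture and on another array design. At 105 to 155 min 361 genes were higher than at 55 to 85 min (6.51% of 5546) and 139 lower (2.51%). Of the 113 later-lower genes of peroxide II tested there, 103 had a negative difference, 36 were called lower and none higher. Of 57 later-higher genes 52 had a positive difference, 38 were called higher and none lower. These 36 and 38 genes are 31.9% and 66.7% of those tested, and 26.3% and 10.6% of the genes so called in peroxide I that were tested in both. Over all genes tested in both courses, 2705 of 5474 had a positive difference in peroxide I and 2769 a negative one. In peroxide I OSI1 fell by 3.62 ± 0.77 with adjusted p = 0.00432. FLR1 and GLR1 fell there by 1.46 ± 0.45 and 0.99 ± 0.29, with adjusted p of 0.0469 and 0.0323. NSR1 rose by 2.58, RPL42A by 2.34 and PHO5 by 1.88, each past the threshold (adjusted p of 0.000755, 0.000154 and 0.0012). The count of 500 changed to 278 without the 155 min array, 317 without 70 min and 323 without 120 min, and it was 53 after quantile normalization.

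Lists differed in their share of calls between the 2 peroxide courses, which were not tested against each other. Cytosolic ribosomal proteins gave 120 rises of 135 genes in peroxide I (median 1.61), against 24 of 136 in peroxide II (1.07). Proteasome genes gave no call of 33 in peroxide I (-0.23), against 6 of 34 in peroxide II (-0.87). General stress genes fell 12 times of 35 in peroxide I (-0.98). Genes that stayed up in peroxide II differed in peroxide I by 0.00 ± 0.27 for TSA1 and by -0.76 ± 0.49 for PRX1. RNR2 and RNR4 rose there by 1.40 ± 0.34 and 1.46 ± 0.35 (adjusted p of 0.0117 and 0.0111). At 170 to 275 min of peroxide I the genes lower late in peroxide II had medians of -0.02 to 0.23.

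**Figure D5:**
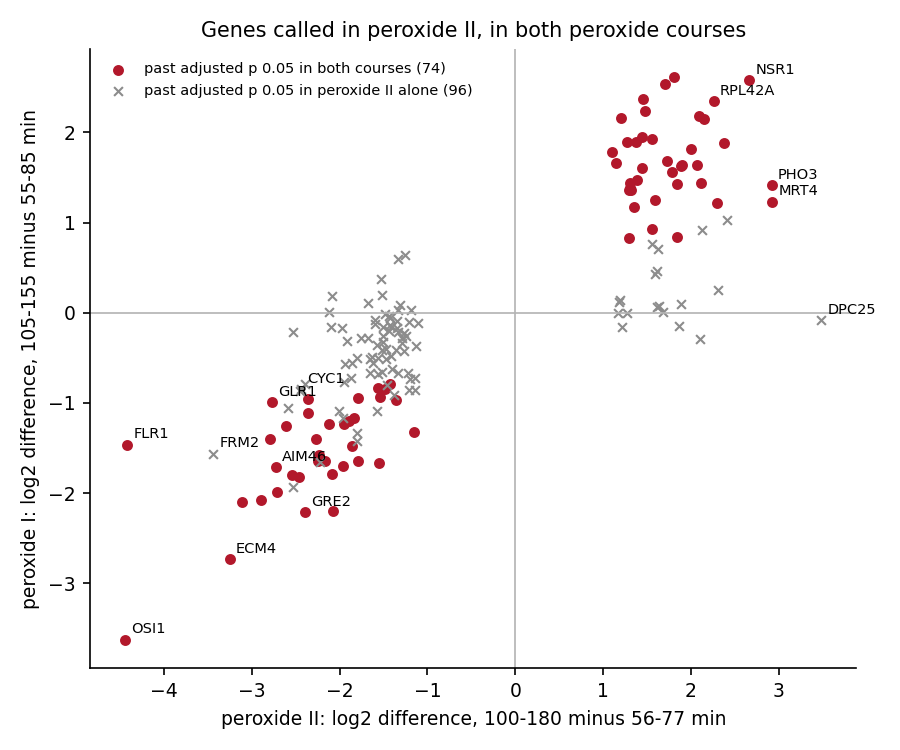
Each point is 1 of the genes called in peroxide II and tested in peroxide I; the horizontal axis is the log2 difference of 100 to 180 minus 56 to 77 min in peroxide II and the vertical axis that of 105 to 155 minus 55 to 85 min in peroxide I. Red circles passed adjusted p 0.05 in both courses and grey crosses in peroxide II alone. OSI1 lies at -4.44 and -3.62, and DPC25 at 3.49 and -0.08.

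Menadione II gave few calls over a similar interval. At 100 to 140 min 2 genes differed from 56 to 85 min (0.0364% of 5495), both lower (MLH2 and YIL014C-A, named after their values were seen). Leaving out 1 array gave 0 calls (100 min), 1 (77 or 85 min) or up to 6 (63 min). The 114 genes lower late in peroxide II had medians of 0.83 to 1.07 at 100 to 140 min of menadione II, against 0.71 to 1.21 at 56 to 85 min. The 58 higher genes had medians of -1.25 to -1.18, against -1.20 to -0.90. Of the 114 genes 67 had a negative difference in menadione II, as had 2846 of all 5464 genes. Of the 58 genes 22 had a positive one, as had 47.9% of all genes.

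The difference between the 2 courses was tested as an interaction, which called 16 of 5464 genes (0.293%), 7 in the positive and 9 in the negative direction. Without centring the split was 36 and 7. The later change of FLR1 was -4.42 in peroxide II and 0.36 ± 0.65 in menadione II, a difference of -4.78 ± 0.89 (adjusted p = 0.013). GLR1 had -2.77 and 0.18 ± 0.39, differing by -2.95 ± 0.54 (adjusted p = 0.013), and FRM2 differed by -3.71 ± 0.69 (adjusted p = 0.013). CTA1 had -2.25 and 1.23 ± 0.57, differing by -3.48 ± 0.78 (adjusted p = 0.041). PBI2, an inhibitor of the vacuolar proteinase B, had -1.89 and 1.32 ± 0.52 (adjusted p = 0.0351), and GRE3 had -2.24 and 0.65 ± 0.41 (adjusted p = 0.0181). OSI1 did not pass that test (-4.65 ± 1.16, adjusted p = 0.0699). In the other direction PHO3 had 2.92 and -0.71 ± 0.57 (adjusted p = 0.0296), and ASC1, a protein of the small ribosomal subunit, had 2.00 and -0.81 ± 0.42 (adjusted p = 0.0239). The count of 16 was 5 without the 56 min peroxide array, 3 without 63 min, and 7 without 140 min. Without the menadione arrays of 56, 85, 100, 130 or 140 min it was 7, 10, 9, 6 or 9. The 8 menadione arrays and the 9 peroxide arrays compared here were scanned on different days, so for levels the day and the agent cannot be told apart. Each later change was taken within 1 course.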

How the data were processed

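RNA of each time point was hybridized against a reference culture on 2-colour spotted arrays. The deposited values are ratios of the authors, taken here as log2 of Cy5 over Cy3 from the dyes in the labels, with base and direction not stated. Their background correction and normalization are not given in the sources used here. Each array was centred on its median gene, probes of a gene were averaged, and genes were named from the platform annotation, updated through RefSeq. In the second series 6570 of 14976 probes named 1 gene (5573 genes), and 0 columns lacked a sample.

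Contrasts between windows were fitted over all second-series arrays, and for peroxide I over its own arrays with the repeated hybridizations of a time point averaged. limma 3.58.1 (R 4.3.3) was used with Benjamini-Hochberg adjustment at 0.05. Genes needed values on 75% of arrays and on 3 arrays of each group, or both arrays of the 100 and 120 min group. The script was tested on simulated data. Values are log2 differences ± SE, and their precision is limited by the number of arrays. Named genes were the 12 largest rises and falls, up to 8 persisting in each direction, 4 of each list, up to 8 of the interaction in each direction, and stress and cycle genes fixed by name. Other genes named were chosen after their values were seen. Members and lists were chosen with earlier results of these data known. Alternatives covered scaling, filters, windows, weights, scan day and arrays left out. The first menadione course was not used here.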

Additional observations from a re-analysis of the deposited data

Results flagged for a closer look

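The genes whose later change differed between the courses, by the interaction test of limma at adjusted p under 0.05, were 16. Values are the change in peroxide II minus the change in menadione II on the log2 scale. It was negative for FLR1 (-4.78), FRM2 (-3.71), CTA1 (-3.48), PBI2 (-3.22), YDL218W (-3.11), GLR1 (-2.95), GRE3 (-2.89), LEU2 (-2.64) and GRX1 (-2.41). It was positive for RPL15B (2.22), HXT8 (2.65), ASC1 (2.81), IRC25 (3.46), PHO3 (3.63), DPC25 (3.77) and RRB1 (4.19). IRC25 and DPC25 each had values on 4 late and 3 earlier arrays of peroxide II. In peroxide I HXT8, IRC25 and DPC25 differed by 0.10, -0.15 and -0.08 and were not called. RPL15B, ASC1, PHO3 and RRB1 rose there past the threshold, by 1.25, 1.81, 1.42 and 0.96. The negative group includes thiol enzymes, a catalase and an exporter, beside FRM2, PBI2, YDL218W, GRE3 and LEU2. The positive group includes ribosome genes and an acid phosphatase, beside HXT8, IRC25 and DPC25. RRB1, a chaperone of ribosomal protein assembly, differed by 1.47 in peroxide II and -2.73 in menadione II, and neither value passed on its own (limma, adjusted p of 0.233 and 0.145). Each course is 1 culture, and the arrays compared were scanned on 1 day for each course.

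Single arrays stood far from the rest of their window in 5 of 108 groups checked, and chance gives about 1 in 20. NMA2 was 0.30 on the 140 min array, above the other 100 to 180 min arrays, and 1.40 on the 77 min array, below the other 56 to 77 min arrays. The median of the cytosolic ribosomal protein list was -0.72 at 100 min, lower than on the later arrays. The G2 and M list stood at -0.09 at 70 min, and the list of DNA damage and nucleotide supply at 0.36 at 160 min.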

How the results depend on the processing

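Of 60 called named genes among 180 tested, 16 kept their call in every setting in which they were refitted, 22 at most, 44 lost it in at least 1, and TFS1, RPN12, TIF11, ARN2 and PCL1 in most of them. None of the 60 reversed its sign. The count of 172 for 100 to 180 against 56 to 77 min was 466 in a fit of the 9 arrays alone, 691 with array weights, 337 with 49 min added to the earlier window, 277 over the 14 arrays of the main scan day, 79 after quantile normalization and 40 at a threshold of 0.01. Scaling the 9 arrays to the same spread and fitting them alone, chosen after seeing the data, gave 54 (10 higher, 44 lower). Leaving out 1 array gave 59 to 171. The count of 767 for 56 to 77 against 0 to 21 min was 194 with scan day as a covariate, and 506 to 671 with 1 array left out (506 without 56 min). The count of 31 for 100 to 180 against 0 to 21 min was 18 in a fit of its arrays alone, 78 without centring, 111 after quantile normalization, 6 with scan day, and 9 to 37 with 1 array left out. The count of 230 for 28 to 49 min was 15 alone, 122 with scan day and 67 to 656. In menadione II the count of 2 was 0 alone or after quantile normalization, 4 without centring and 0 to 6. The interaction count of 16 was 55 alone, 43 without centring and 3 to 23. Within the late window the count of 0 was 2 after quantile normalization and 0 to 2 (2 without 100 min). In peroxide I the count of 500 was 53 after quantile normalization and 278 to 543. The cause was not tested. No paired analysis was possible because the time points of a course carry no replicate numbers. Dim spots cannot be judged, since no signal or background was used here. List medians of 100 to 180 minus 56 to 77 min were also taken after quantile normalization. They were -0.91 for the proteasome, -0.64 for chaperones, -0.78 for iron uptake, -0.11 for trehalose and glycogen and -0.31 for histones. Cytosolic ribosomal proteins then had 0.94, ribosome biogenesis 0.75 and translation factors 0.27.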

Other observations

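Of the genes below, PHO12, GRX2, EMI1, FMP23 and RPS11B were named after their values were seen. ERG11, ERG9 and MPC54 were named by the rules given above. In the ergosterol list 1 of 23 genes rose and 1 fell. ERG11, a demethylase of the pathway, rose by 1.56 ± 0.40, and ERG9, squalene synthase, fell, with a difference of -1.47 ± 0.37 (limma, adjusted p of 0.0279 and 0.0247). PHO12, a near copy of PHO11, had -1.07, -0.99, -1.26, -0.88 and -1.28 at 100 to 180 min, against -4.65, -4.30, -2.36 and -1.44 at 56 to 77 min. It differed by 2.09 ± 0.55 in peroxide II and by 2.18 ± 0.31 in peroxide I, and probes of the copies may share signal. GRX2, a glutaredoxin, had 2.19, 1.86, 2.10, 0.21 and 1.07, against 3.24, 3.90, 3.21 and 2.73, and its neighbour EMI1 had 1.36, 1.06, 0.58, -0.06 and 0.03, against 1.83, 2.21, 1.75 and 1.82. Both fell without overlap of the windows (adjusted p of 0.0337 and 0.0318). MPC54, a gene of spore formation, had 1.61, 1.11, 0.62, 0.92 and 2.52, against -2.07, 0.42, -0.21 and -1.15, while none of 11 genes in the sporulation list was called.

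FMP23 and RPS11B are neighbours that went opposite ways. FMP23 had -0.25, 0.50, -0.12, 0.13 and 0.13, against 3.30, 2.02, 1.93 and 1.35, and RPS11B had -0.28, 0.34, 0.62, 0.58 and 0.59, against -1.31, -1.20, -0.63 and 0.01. They differed by -2.07 ± 0.44 and 1.15 ± 0.31, with adjusted p of 0.00793 and 0.0355.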
